A study of Mus musculus with 10 samples.

Results

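Where c-JUN sat at gene starts was described from 13332 regions, the JUN regions that lie within 1 kb of an annotated transcription start site. They were the rows of the deposited JUN table of TGF against siHK1 whose annotation was the class of promoters within 1 kb, and they made up 18.3% of the 72990 regions listed there. The cells were primary mouse cardiac fibroblasts of the labelled tissue heart, and CUT&Tag, in which an antibody brings a transposase to chromatin so that nearby DNA is cut, tagged and sequenced, was run with an antibody to c-JUN. The TGF library came from fibroblasts treated with TGF-β, the cytokine that drives fibroblasts to become myofibroblasts. The siHK1 library came from fibroblasts transfected with an siRNA against Hk1, which encodes the glycolytic enzyme hexokinase 1, and then treated with TGF-β, so both libraries shared the cytokine. Strain, age and sex of the mice were not given in the labels. Each condition was covered by 1 library. No replicate error can therefore be given and no difference was tested, so what follows sets the TGF library beside the siHK1 library, and regions are not replicates of a condition. The tables used here do not measure the degree of HK1 knockdown.

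c-JUN is a basic leucine zipper protein and a core subunit of AP-1, the dimeric transcription factor that responds to growth factors, stress and TGF-β. With FOS partners it binds the AP-1 element TGACTCA, and with partners of the ATF family it also binds the cAMP response element (CRE) TGACGTCA. In many cell types most AP-1 binding lies at enhancers far from genes, whereas promoters are rich in CpG and in the boxes of SP/KLF, ETS and NRF1 factors.

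The sequences below show what JUN promoter regions held at their centres. They are written 5′ to 3′ in the direction of the assigned gene, with the matched element in capitals, from the GRCm38 assembly, and none overlaps an annotated exon. A530046M15Rik, Plekha5, Dop1b, Jund, Trib1 and Rap2a are on the plus strand and the other genes on the minus strand. The first set shows the regions of highest read density among those with an AP-1 element on either strand (read as TGACTCA or TGAGTCA). Oxsr1 encodes a stress-responsive kinase, and Zdhhc20 a palmitoyltransferase. The Oxsr1 window was at chr9:119265886-119265952 and lay within annotated introns of Oxsr1 and Slc22a14. The Zdhhc20 window, at chr14:57839942-57840008, lay in an intron of that gene, and the A530046M15Rik window, at chr13:15806997-15807063, lay outside every annotated gene.
Oxsr1: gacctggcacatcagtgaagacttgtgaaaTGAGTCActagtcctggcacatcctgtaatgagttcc
Zdhhc20: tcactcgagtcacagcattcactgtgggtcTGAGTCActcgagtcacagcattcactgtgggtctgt
A530046M15Rik: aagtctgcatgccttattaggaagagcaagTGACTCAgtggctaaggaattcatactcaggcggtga
The Oxsr1 region held 870 TGF reads and 487 siHK1 reads, the Zdhhc20 region 472 and 281, and the A530046M15Rik region 566 and 367. The Zdhhc20 window is a tandem repeat, in which a stretch of 32 bases occurs again within the window. The central 200 bases of the Oxsr1 region held 5 copies of the element and those of the Zdhhc20 region 4.

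The second set shows, among regions with an AP-1 element and above the median read level, those of largest fall from TGF to siHK1. Il11 encodes interleukin 11, a cytokine known for its part in fibrosis. The windows were at chr6:140562351-140562417, chr16:97869371-97869437 and chr7:4778203-4778269, each in an intron of the named gene.
Plekha5: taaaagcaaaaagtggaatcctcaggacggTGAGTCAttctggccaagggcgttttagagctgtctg
C2cd2: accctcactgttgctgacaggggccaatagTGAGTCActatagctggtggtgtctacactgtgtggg
Il11: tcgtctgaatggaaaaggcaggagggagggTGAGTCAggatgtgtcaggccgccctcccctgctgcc
The Il11 region (152 TGF reads, 32 siHK1 reads) had a log2 ratio of -1.34 after both libraries were scaled to equal totals. The scaled ratio of siHK1 to TGF was 0.396, with an exact 95% interval of 0.258 to 0.575 that covers counting error only. The ratio was 0.362 (0.188 to 0.617) at Plekha5, with 79 and 15 reads, and 0.396 (0.223 to 0.640) at C2cd2, with 91 and 19 reads. The largest rises among such regions were at Ddx10, which encodes an RNA helicase, at chr9:53248496-53248562 outside annotated genes, and Dop1b at chr16:93778353-93778419 in its own intron.
Ddx10: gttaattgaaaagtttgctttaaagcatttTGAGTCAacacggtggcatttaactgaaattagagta
Dop1b: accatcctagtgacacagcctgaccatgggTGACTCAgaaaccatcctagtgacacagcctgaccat
The Ddx10 region rose from 18 TGF reads to 31 siHK1 reads, and the Dop1b region from 397 to 483, a scaled ratio of 2.26 (1.97 to 2.59). The Dop1b window also repeats itself, over 27 bases, and its central 200 bases held 5 AP-1 elements.

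The last set shows the promoters of Jun and Jund and the regions of highest read density among those with a CRE. Jun carries the variant TGACATCA, through which the gene is known to be controlled by its own product, and Jund carries a CRE. The promoter regions of Junb held neither of these nor an AP-1 element in their centres. Trib1 encodes a pseudokinase, Rap2a a small GTPase and Rcan1 an inhibitor of calcineurin. The windows were at chr4:95052230-95052297 (inside the antisense gene Junos), chr8:70698705-70698772, chr15:59648204-59648271, chr14:120477857-120477924 and chr16:92400216-92400283 (in an intron of Rcan1), and the elements of Jun and Jund lay 42 and 210 bases upstream of the start site.
Jun: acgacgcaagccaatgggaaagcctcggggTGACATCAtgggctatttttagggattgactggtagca
Jund: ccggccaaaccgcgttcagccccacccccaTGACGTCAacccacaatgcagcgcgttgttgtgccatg
Trib1: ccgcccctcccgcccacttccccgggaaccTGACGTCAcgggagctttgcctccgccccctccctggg
Rap2a: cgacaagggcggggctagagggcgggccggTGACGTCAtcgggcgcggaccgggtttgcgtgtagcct
Rcan1: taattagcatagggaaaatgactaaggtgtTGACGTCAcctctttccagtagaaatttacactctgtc
At the Jun region there were 282 TGF reads and 165 siHK1 reads, a log2 ratio of 0.12. Trib1 had 505 and 303 reads, Rap2a 336 and 219, and Rcan1 243 and 140, with log2 ratios of 0.16, 0.28 and 0.10. None of the CRE regions printed here stood lower in siHK1 after scaling.

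JUN promoter regions were wide and sparsely covered. Their median width was 523 bases (quartiles 333 and 769, range 180 to 2526), against 425 bases for JUN regions in introns (25985 regions) and 436 for distal intergenic ones (23998 regions). They covered 7.89 Mb and took 739277 TGF reads and 402377 siHK1 reads, which was 93.7 and 51.0 reads per kb, against 112 and 60.3 per kb over all listed JUN regions. The median promoter region held 34 TGF reads and 18 siHK1 reads. The files give no total for a library beyond its listed regions, so sequencing depth is unknown. Per kb, the mean of the scaled reads of both libraries had a median of 48.6 at promoters, 54.9 in introns and 55.7 at distal sites, so the promoter class was lower in density although its regions were wider. The share of all listed JUN reads that fell in promoter regions was 17.5% in TGF (17.50 to 17.57) and 17.7% in siHK1 (17.67 to 17.77).

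The regions clustered on the start site. In 8208 of them (61.6%) the start site lay inside the region, 2596 lay wholly upstream and 2528 wholly downstream, and the midpoint was a median of 15 bases downstream of the start (quartiles -203 and 225). They were assigned to 10238 genes, of which 7849 had 1 region, 1878 had 2 and 511 had 3 or more, and 11 regions carried no gene symbol. Lhfpl2, Plec and Tns1 had the most, with 8 regions each along alternative start sites. Plec, which encodes the cytoskeletal linker plectin, ranged from 38 TGF and 5 siHK1 reads to 1067 and 420 reads. Its region of 1067 reads gave a log2 ratio of -0.45, whereas the strongest of Tns1, which encodes the adhesion protein tensin 1, gave 0.60 on 465 and 379 reads. Of all promoter regions 93.4% belonged to protein-coding genes, 4.87% to lncRNA genes and 1.04% to miRNA genes.

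Regions that held the start site differed from those beside it. They were wider, with a median of 624 bases against 376 upstream and 375 downstream, and a peak was called in both libraries at 61.5%, 40.0% and 33.8% of them, respectively. A wider region is more likely to hold a start site, so the width is not separate from this split. Median TGF reads were 42, 24 and 21. Over promoter regions the share with both peaks rose with reads, from 2.87% in the lowest of 5 bins of mean scaled reads to 90.7% in the highest. Over all promoter regions both libraries had a peak at 52.1% (exact interval 51.2 to 52.9), against a background of 49.7% over all listed JUN regions. A peak was marked in TGF alone at 4891 regions (36.7%, against 38.1% of all listed), in siHK1 alone at 1466 of 13332 (12.1% of all listed) and in neither at 31. The 687 regions that held start sites of coding genes on both strands had a median width of 807 bases, and 515 of them had a peak in both libraries. A wide region is more likely to span both starts, so this width is not separate from how the group was defined. Their median of TGF reads was 52, against 34 over all promoter regions. Mir7009 (289 and 146 reads) and Dcun1d3 (197 and 107) were among the densest of these bidirectional promoters. At the edge of the class, 756 members lying 800 to 1000 bases from the start had a median density of 49.9 per kb, and the 654 JUN regions just outside, 1 to 1.2 kb away, had 52.4.

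The AP-1 element was far less frequent at promoters than at other JUN regions. Searched on both strands of the central 200 bases, TGACTCA was present in 1321 promoter regions, 9.91% (9.41 to 10.4), against 26.6% of intron regions, 28.5% of distal regions and 24.1% of all listed JUN regions. It was still above its surroundings, since 3.43% of windows of the same length 5 kb to either side held it, and above mouse promoters at large, where 3.60% of 32817 RefSeq windows (GRCm38.p6, 150 bases before to 50 after the start) did. The CRE went the other way. TGACGTCA was present in 207 promoter regions, 1.55% (1.35 to 1.78), against 0.423% in introns and 0.392% at distal sites. RefSeq promoters held it at 1.61%, but their windows lie at a fixed place by the start, whereas JUN windows spread to either side. JUN regions with their midpoint in the 100 bases upstream of the start held it at 3.71%. Only 6 promoter regions held both elements, all with a peak in both libraries.

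Motifs of general promoter factors were more frequent at promoters than at other JUN regions. GGGCGG, the SP/KLF box, was present in 35.8% of JUN promoter regions, 3.68% of intron and 3.95% of distal regions and 32.1% of RefSeq promoters. CCGGAAG, an ETS motif, was present in 6.92%, 0.781%, 0.929% and 7.54%, and the NRF1 motif in 3.29%, 0.0346%, 0.0875% and 3.97%. The motif of YY1, AAGATGGC, stood at 1.92%, 0.797%, 0.821% and 2.06%, and the E-box CACGTG at 5.23%, 2.97%, 2.50% and 5.45%. For these 5 motifs the share over all JUN promoter regions was closer to that of RefSeq promoters than to that of other JUN regions. The RefSeq windows lie at a fixed place by the start, so no RefSeq share here is matched to JUN regions by distance. JUN regions with their midpoint in the 100 bases upstream of the start held the SP/KLF box at 56.8% and the ETS motif at 13.5%. GGAATG, bound by TEAD factors, ran the opposite way, at 9.53% against 15.5% and 15.7%, with 9.75% of RefSeq promoters. The TATA motif TATAAA was in 3.55% of JUN promoter regions, below intron regions (9.04%), distal regions (8.79%) and RefSeq promoters (8.92%) alike. CCAAT was in 22.1%, 21.4% and 23.3% of the JUN classes and in 28.5% of RefSeq promoters. The SP/KLF box is itself made of G and C. The median GC content of the central 200 bases was 59.0% at promoters and 47.5% and 47.0% in introns and at distal sites, with 10, 2 and 2 CpG.

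The AP-1 deficit was present at equal base composition. Among regions of 45 to 50% GC the element was in 19.3% of 1473 promoter regions, 29.1% of intron and 30.2% of distal regions. Among those of 55 to 60% GC it was in 9.77% of 2304, 20.9% and 22.5%, and among those of 60 to 65% GC in 5.17% of 2147, 13.8% and 15.7%. The CRE difference was not present in every bin. At 60 to 65% GC the CRE was in 2.24% of promoter regions, 0.189% of 529 intron and 0.664% of 452 distal regions, but at 45 to 50% GC in 0.272%, 0.411% and 0.358%, and below 45% GC in 0.367%, 0.364% and 0.262%. Within promoters, the share with an AP-1 element fell at each step of GC, from 21.9% below 45% GC to 1.97% at 70% and over.

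Distance from the start site ordered the motifs. The AP-1 element was in 20.6% of the regions whose midpoint lay more than 500 bases upstream and in 16.9% of those 500 bases or more downstream, and it dropped to 5.05% at 100 to 199 bases downstream. The CRE was highest where AP-1 was low, at 3.71% of regions with their midpoint in the 100 bases upstream of the start, and was 0.173% at 500 bases or more downstream. The SP/KLF box followed the CRE, from 12.3% far upstream to 56.8% in the 100 bases upstream of the start. By number, 547 of the 1321 AP-1 regions lay over a start site, 410 upstream and 364 downstream, which was 6.66%, 15.8% and 14.4% of the regions at each position.

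**Figure D1:**
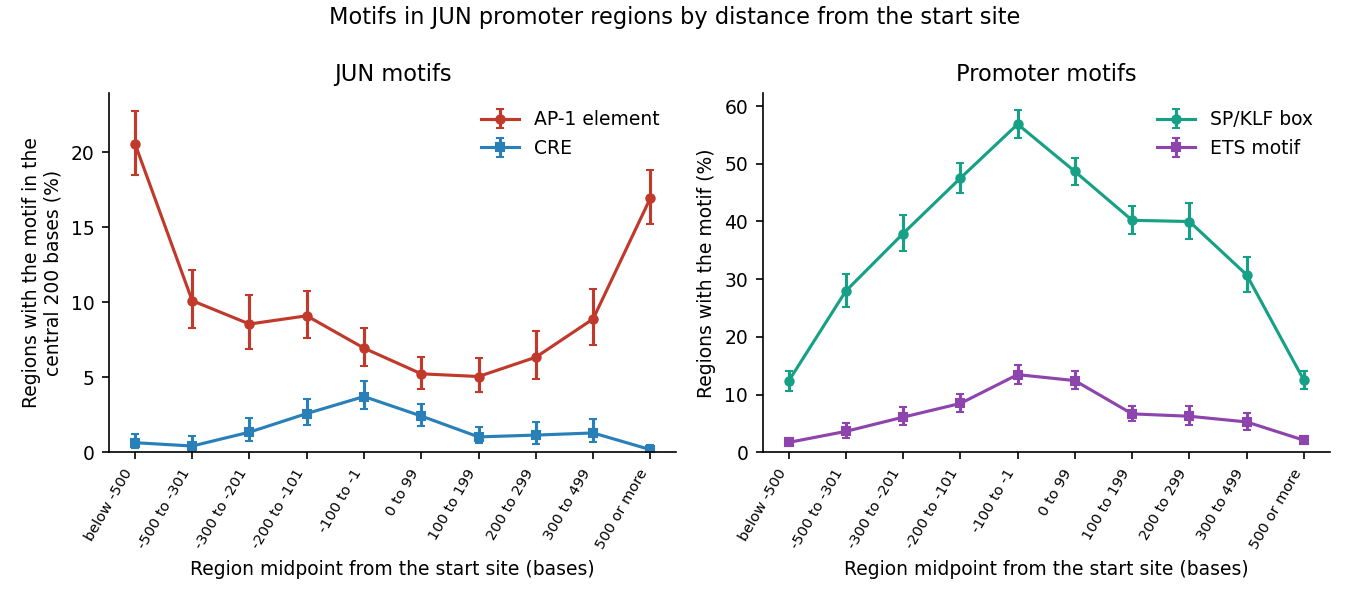
Share of JUN promoter regions (y axis, %) whose central 200 bases hold an AP-1 element or a CRE (left) and an SP/KLF box or an ETS motif (right), by distance of the region's midpoint from the start site in bases (x axis, negative is upstream); bars are exact 95% intervals of counting error. The AP-1 share is lowest just downstream of the start (5.05%) and highest far upstream (20.6%), whereas the CRE share peaks just upstream of it (3.71%).

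Read density rose with the AP-1 element. When all listed JUN regions were cut into 10 equal bins of reads per kb, the share of promoter regions with the element went from 3.37% (45 of 1337) in the lowest bin to 29.6% (258 of 871) in the highest. Introns went from 7.12% to 45.8% and distal regions from 7.61% to 47.2%, so promoters stayed below them in every bin. The CRE share at promoters rose from 0.524% to 2.07%, with its highest value, 2.44%, in bin 8, and the SP/KLF share was 26.9% in the lowest and 28.5% in the highest bin, with 40.1% in bin 7. The 1321 promoter regions with an AP-1 element had a median density of 73.9 reads per kb, those without 46.7, and a peak in both libraries at 66.2% and 50.5%. The 207 with a CRE had 63.9 per kb and a peak in both libraries at 72.9%. Since the regions are listed because reads piled up there, these shares describe the listed regions and are no test.

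**Figure D2:**
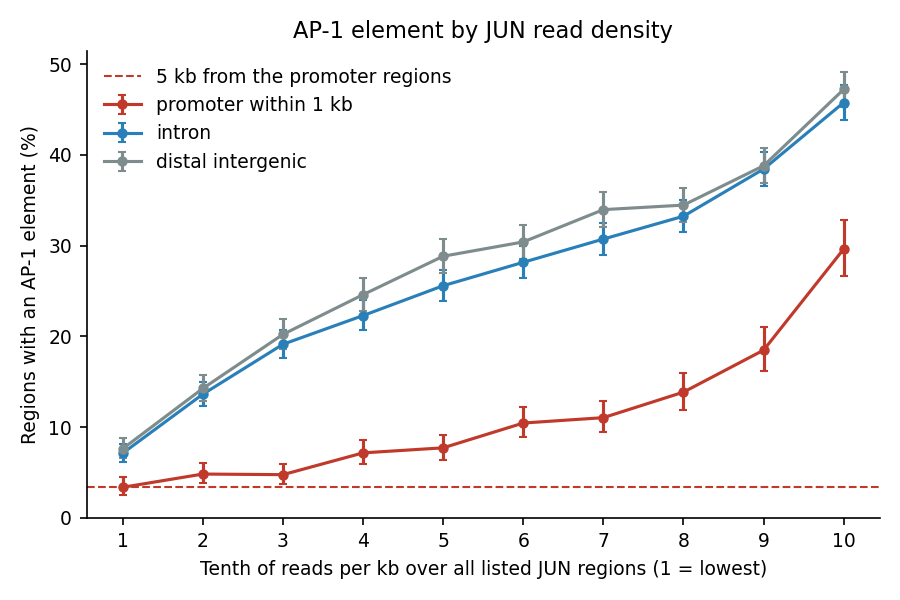
Share of JUN regions with an AP-1 element in the central 200 bases (y axis, %) by bin of reads per kb over all listed JUN regions (x axis, 10 equal bins, 1 is the lowest), for promoter, intron and distal intergenic regions, with exact 95% intervals of counting error; the dashed line is the share in windows 5 kb from promoter regions (3.43%). All 3 classes rise, and promoters run below the other 2 in every bin.

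The densest promoter regions were not all at ordinary genes. Of the 5 with the most reads per kb, 3 were assigned to Rn45s, the ribosomal RNA precursor, on chromosome 17, with 2230, 2950 and 3003 TGF reads and 1512, 1744 and 1823 siHK1 reads. Ribosomal DNA exists in many near-identical copies, so these reads cannot be placed on 1 copy. The others were Oxsr1, printed above, and Mir101c (323 and 272 reads), and the Rn45s and Mir101c regions also carried 424 to 1755 SMAD3 reads in each library, where the median promoter region listed for SMAD3 carried 5 and 8.

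Between the TGF and siHK1 libraries the median promoter region hardly moved relative to other JUN regions. After both libraries were scaled to equal totals over all listed regions, the median log2 ratio of siHK1 to TGF at promoter regions was -0.01 (quartiles -0.42 and 0.34), on counts plus 0.5. Over all listed regions it was -0.04, with -0.06 in introns and -0.05 at distal sites. Without scaling the promoter median was -0.90 and that of all regions -0.94, since the siHK1 library held fewer reads, and a decrease shared by every region cannot be told apart from lower depth. In bulk cultures, fewer cells with the factor bound and less binding per cell cannot be told apart either. At least 2-fold lower in siHK1 were 1174 promoter regions, 8.81%, against a background of 11.4% over all listed regions, and at least 2-fold higher were 803, 6.02%, against 7.44%. Intron regions stood at 12.2% and 7.97%. Lower calls outnumbered higher ones under each scaling, with 59.4% of the changed promoter regions lower in the ratio used here, and 71.6% (1458 lower, 577 higher) when the spread of both libraries was matched as well. All listed regions gave nearly the same shares, 60.5% and 70.8%. Among promoter regions with a peak in both libraries the balance was the reverse, with 42 lower and 99 higher (0.605% and 1.43%). All listed regions with a peak in both libraries gave 1.18% and 1.99%, so the reversal was not particular to promoters. Asking for both peaks also leaves out many regions that are low in 1 library.

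Both shares followed the number of reads. All listed regions were cut into 5 equal bins of mean scaled reads. In the lowest bin (up to 10.2) 28.9% of promoter regions were 2-fold lower and 17.5% higher, in the middle bin 4.28% and 3.22%, and in the highest (from 61.5 reads) 0.772% and 0.348%. All listed regions gave 31.7% and 20.3%, 7.25% and 4.72%, and 1.12% and 0.377% in the same bins, so promoters were below them at each of these levels. There were 104 promoter regions with no siHK1 read and 27 with no TGF read. The regions over a start site were 2-fold lower in 5.70%, those upstream in 13.3% and those downstream in 14.2%, with median widths of 624, 376 and 375 bases. Of the CRE regions 6 of 207 (2.90%) and of the bidirectional promoters 13 of 687 (1.89%) were 2-fold lower, against 8.81% of all promoter regions, and both groups had more reads, with medians of 50 and 52 in TGF against 34. Of the AP-1 regions 89 of 1321 (6.74%) were, against 9.03% of the promoter regions without the element, with median TGF reads of 53 and 32. Peak marks and the ratio rest on the same reads, so they are not separate evidence. Of the 1174 lower regions 1131 had a peak in TGF alone, and of the 803 higher ones 689 had a peak in siHK1 alone. The same held over all listed regions, at 7885 of 8316 and 4626 of 5427, which is close to the promoter counts in proportion.

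**Figure D3:**
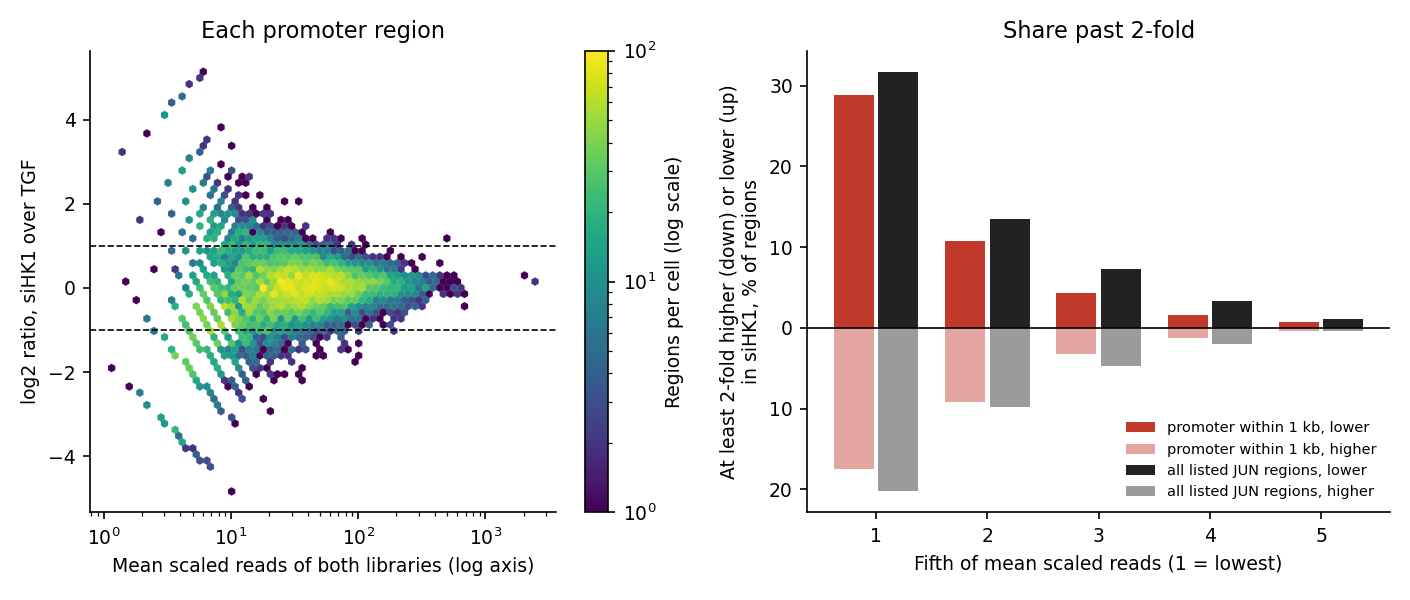
Left, log2 ratio of siHK1 to TGF (y axis) against the mean scaled reads of both libraries (x axis, log scale) for each of the 13332 promoter regions, coloured by the number of regions per cell, with dashed lines at 2-fold. Right, share of regions (y axis, %) at least 2-fold lower (upward) or higher (downward) in siHK1 by bin of mean scaled reads (x axis, 5 equal bins), for promoter regions and all listed JUN regions; both shares shrink from the lowest bin (28.9% and 17.5% at promoters) to the highest (0.772% and 0.348%).

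Among the promoter regions above the median level of all listed regions (24.5 scaled reads; 6965 regions), the largest falls were at Rdm1, a DNA repair protein of the RAD52 family, with 74 TGF and 8 siHK1 reads (scaled ratio 0.212, 0.0835 to 0.416), and at Ndrg2, a stress-responsive gene, with 75 and 9 reads (0.234, 0.0980 to 0.446). Kcnj14, a potassium channel, had 55 and 7 reads, Akap8l, a nuclear scaffold protein, 77 and 11, and Nfic, a transcription factor of the NFI family, 58 and 9. Zfp119b had 57 and 9 reads, Klhl33 56 and 9, and the region of Mir3154 the most, 188 and 31 (0.310, 0.202 to 0.449). All of these regions had a peak in TGF, and 7 of the 8 had none in siHK1. None held an AP-1 element or a CRE in its central 200 bases. The largest rises rested on fewer TGF reads. Ap3b2, a subunit of the neuronal adaptor complex, went from 13 to 30 reads (4.19, 2.17 to 8.95), and Vgll3, a cofactor of TEAD proteins, from 18 to 40 (4.06, 2.31 to 7.64). Ddx10, Trmt13 (a tRNA methyltransferase), Slc18a1 (a vesicular amine transporter), Pabpc4 (a poly(A) binding protein) and Mir6361 rose with log2 ratios of 1.66 to 1.41. These counts stood above the median level and still lay between 13 and 40 reads.

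Of 19 AP-1 genes and relatives, 15 had a promoter region, 24 in all. Of the 21951 protein-coding genes of GENCODE vM21, expressed or not, 43.1% had one, so each count of list genes below is to be set beside that share. The regions of the AP-1 list had a median density of 116 reads per kb against 48.6 for all promoter regions. Fosl2 had 302 TGF and 160 siHK1 reads, Jun 282 and 165, Junb 248 and 129 and Maff, a small MAF protein, 208 and 136. Atf3, a stress-induced ATF member, had 140 and 78 reads, Jund 131 and 85, Fosl1 64 and 49, and Fos 27 and 15. Batf, Batf2, Batf3 and Jdp2 had no promoter region. No region of the list was 2-fold lower or higher, beside 8.81% and 6.02% of all promoter regions, whose density was lower, and the median log2 ratio was 0.01, which turned to -0.05 when totals were matched over regions with a peak in both libraries and to -0.04 when the spread was matched as well. Without scaling 8 of the 24 were 2-fold lower and the median was -0.88. Of the 24 regions 4 held an AP-1 element in the centre and 1 a CRE, beside 9.91% and 1.55% of all promoter regions.

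Other immediate early genes, which cells switch on within minutes of a stimulus, had a promoter region in 20 of 23 cases (29 regions, median density 90.2 per kb). Zfp36, which destabilises inflammatory mRNAs, had 446 TGF and 243 siHK1 reads, Dusp1, a MAP kinase phosphatase, 399 and 234, Klf4 281 and 127, and Egr1 202 and 132. Of these 29 regions 2 were 2-fold lower, at Egr2 (15 and 3 reads, scaled ratio interval 0.0689 to 1.31) and Nr4a1 (19 and 3, 0.0555 to 0.995), and 2 higher, at Dusp6 (61 and 66, 1.40 to 2.89) and Egr3 (3 and 8, 1.19 to 29.0), near the 8.81% and 6.02% of all promoter regions. Egr2, Egr3 and Nr4a1 each had a further region with more reads and a log2 ratio between -0.41 and 0.71. Ccn2, Dusp5 and Ier2 were without one. The median log2 ratio of the list was -0.05. Without scaling 11 of its regions were lower and 1 higher, beside 42.7% and 1.28% of all promoter regions.

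Genes of the TGF-β pathway were described by role. Ligands, receptors, binding proteins and SMADs were represented by all 17 genes and 27 regions, with a median log2 ratio of -0.30, against -0.01 for all promoter regions, and 8 regions with a peak in both libraries, which 52.1% of all promoter regions had. Tgfb1, the ligand, had 110 and 35 reads (scaled ratio 0.596, 0.392 to 0.871), Tgfbr1, the type I receptor, 220 and 82 (0.694, 0.530 to 0.895), and Tgfbr2 169 and 78. Ltbp3, which holds latent TGF-β in the matrix, had 263 and 146 reads (log2 ratio 0.05), and Smad3, a signal transducer of the receptor, 156 and 67 (-0.32). At least 2-fold lower were Tgfb3 (29 and 3 reads, scaled ratio 0.22, 0.0374 to 0.619), a weak region of Ltbp1 (8 and 1) and Ltbp2, whose 26 TGF reads stood against 0 siHK1 reads, an interval of the scaled ratio that reaches 0.283. Tgfbr3, a coreceptor, was higher (26 and 35 reads, 1.46 to 4.32). The feedback genes that TGF-β induces to restrain itself had a median of 0.07 over 20 regions of all 12 genes, with 14 peaks in both libraries and 1 region 2-fold lower, a weak one of Spsb1 (19 and 4 reads). Smurf1, a ubiquitin ligase for receptors and SMADs, had 444 and 251 reads and 2 AP-1 elements in its centre, the strongest region of Spsb1 223 and 132, Skil 201 and 93, Smad7, the inhibitory SMAD, 162 and 77, and Pmepa1 133 and 109 (1.52, 1.17 to 1.97). The difference between the 2 lists was not tested, and 3 of 27 and 1 of 20 regions lower stood beside 8.81% of all promoter regions. The feedback median was 0.014 and 0.022 under the other scalings and -0.82 without scaling, where the median of all regions was -0.94. Without scaling 18 of the 27 regions and 8 of the 20 feedback regions were lower, beside 42.7% of all promoter regions.

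Genes of the contractile apparatus, the hallmark of myofibroblasts, had regions at 22 of 27 genes (39 regions). Vim, the intermediate filament vimentin, had 522 TGF and 328 siHK1 reads, Zyx, the focal adhesion protein zyxin, 466 and 250, Tagln2 322 and 190, and Tpm2, a tropomyosin, 277 and 127. Acta2, which encodes α-smooth muscle actin, had 208 and 61 reads, a scaled ratio of 0.547 (0.402 to 0.727) that is less than 2-fold. Flna, the actin crosslinker filamin A, was 2-fold lower (44 and 10 reads, 0.438, 0.189 to 0.851), as was Myl9 (10 and 1). Higher were single regions of Zyx (46 and 55, 2.22, 1.47 to 3.36), Myh9, a nonmuscle myosin (19 and 26), Actb (16 and 19) and Myh10 (6 and 7), each at a start site other than the gene's strongest where it had several. The median log2 ratio was -0.06. These 2 lower and 4 higher of 39 regions stood beside 8.81% and 6.02% of all promoter regions. The balance turned to 4 lower and 2 higher, with a median of -0.17, when the spread was matched, and to 18 lower and 0 higher without scaling.

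Extracellular matrix genes had regions at 28 of 33 genes (39 regions, median log2 ratio -0.15, 13 with a peak in both libraries, beside 52.1% of all promoter regions). Timp1, an inhibitor of metalloproteinases, had 319 TGF and 167 siHK1 reads, Lox, a collagen crosslinking enzyme, 250 and 133, and Loxl2 115 and 81. Col1a2, a chain of type I collagen, divided: its region over a start site had 63 and 12 reads (scaled ratio 0.365, 0.174 to 0.662), whereas the strongest one, 566 bases downstream of the nearest start, had 126 and 79 (1.17, 0.867 to 1.55). Timp3 (49 and 11, 0.431, 0.195 to 0.812) was also 2-fold lower, as were weak regions of Col5a1 (12 and 1) and Mmp2 (13 and 3). The strongest region of Col5a1 had 108 and 31 reads (0.539, 0.345 to 0.801). The 3 higher regions, at Col5a2, Col1a2 and Col4a1, held at most 8 TGF and 11 siHK1 reads. The 4 lower and 3 higher of 39 regions were near the 8.81% and 6.02% of all promoter regions. Without scaling 20 were lower and 1 higher, beside 42.7% and 1.28% of all promoter regions. Col1a1 and Fn1, the type I collagen partner chain and fibronectin, had no promoter region.

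Interferon genes, including Irf7, the factor the study centres on, were weakly covered, with a median density of 33.3 reads per kb over 22 regions of 16 of 21 genes. Irf3 had 87 TGF and 61 siHK1 reads and 2 AP-1 elements, Irf5 64 and 25, Ifit3 43 and 31, Irf2 33 and 28, and Irf7 16 and 7, a scaled ratio interval of 0.282 to 2.09. Of these 22 regions 5 were 2-fold lower, among them Mx1 (9 and 0 reads), Irf9 (7 and 0), Irf4 (12 and 2) and Ddx58 (11 and 2), and 3 higher, at Irf8 (5 and 13), Ifih1 (4 and 9) and Irf1 (12 and 16). None of those named held more than 16 reads in either library, and the shares over all promoter regions were 8.81% and 6.02%, and 28.9% and 17.5% in the lowest read bin. The median of the list, 0.33, was positive under every scaling tried but not without scaling (-0.56).

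Glycolytic genes, the pathway of HK1, had regions at 19 of 24 genes (30 regions, median log2 ratio -0.12). Gapdh had 318 TGF and 160 siHK1 reads and Aldoa 302 and 176, both near equal after scaling. Hk1 itself, the target of the siRNA, had 112 and 90 reads at its stronger region (scaled ratio 1.49, 1.12 to 1.99) and 29 and 9 at another start site. Eno3, the muscle enolase, was 2-fold lower (179 and 46, 0.481, 0.337 to 0.663) and a region of Pfkp (9 and 16) higher, and Pkm, pyruvate kinase, had 142 and 52 reads (0.684, 0.485 to 0.940). Cell cycle genes had a median of 0.22 over 32 regions of 24 of 30 genes. The strongest, Cdkn1a, which encodes the cell cycle inhibitor p21, had 218 and 188 reads (1.60, 1.31 to 1.95), followed by E2f3 (112 and 64), Cdk4 (106 and 58) and Ccne1 (69 and 48). Of this list 2 regions were lower, Top2a (24 and 1 reads, 0.00188 to 0.474) and Cdkn2a (18 and 4), and 3 higher, among them another region of Top2a (5 and 11). The calls of both lists stood beside 8.81% lower and 6.02% higher over all promoter regions. With the spread matched the medians were -0.22 for glycolysis and 0.09 for the cell cycle, and without scaling -1.01 and -0.67.

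Ribosomal protein genes, typical housekeeping promoters, had 62 regions of 59 genes at a median density of 48.9 per kb, close to the promoter class as a whole. Rps14 had 185 TGF and 75 siHK1 reads, Rpl10a 151 and 93, Rps19 137 and 69, and Rps29, with a CRE, 122 and 99. The median log2 ratio was 0.07, -0.02 with the spread of the libraries matched, and 3 regions were lower and 2 higher, beside 8.81% and 6.02% of all promoter regions. These calls became 4 and 0 with the spread matched and 22 and 0 without scaling. Replication-dependent histone genes (34 genes, 36 regions) had a median of -0.30, with 7 regions 2-fold lower and 1 higher. Over all promoter regions 8.81% were lower, with 28.9% in the lowest read bin and 10.8% in the next. The lower ones were H2ac21 (19 and 2 reads), H4c11 (16 and 2), H3c8 (32 and 5), H2bc9 (28 and 6), H4c4 (18 and 4), H4c8 (22 and 5) and H4c18 (29 and 7), each under 33 TGF reads. The most covered, H3c14 (169 and 74) and H4c1, with 2 CREs (102 and 41), had log2 ratios of -0.29 and -0.41. Without scaling 23 of the 36 histone regions were lower and 0 higher, beside 42.7% and 1.28% of all promoter regions. Histone genes are near-identical in their coding parts, so reads there can be shared between copies.

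**Figure D4:**
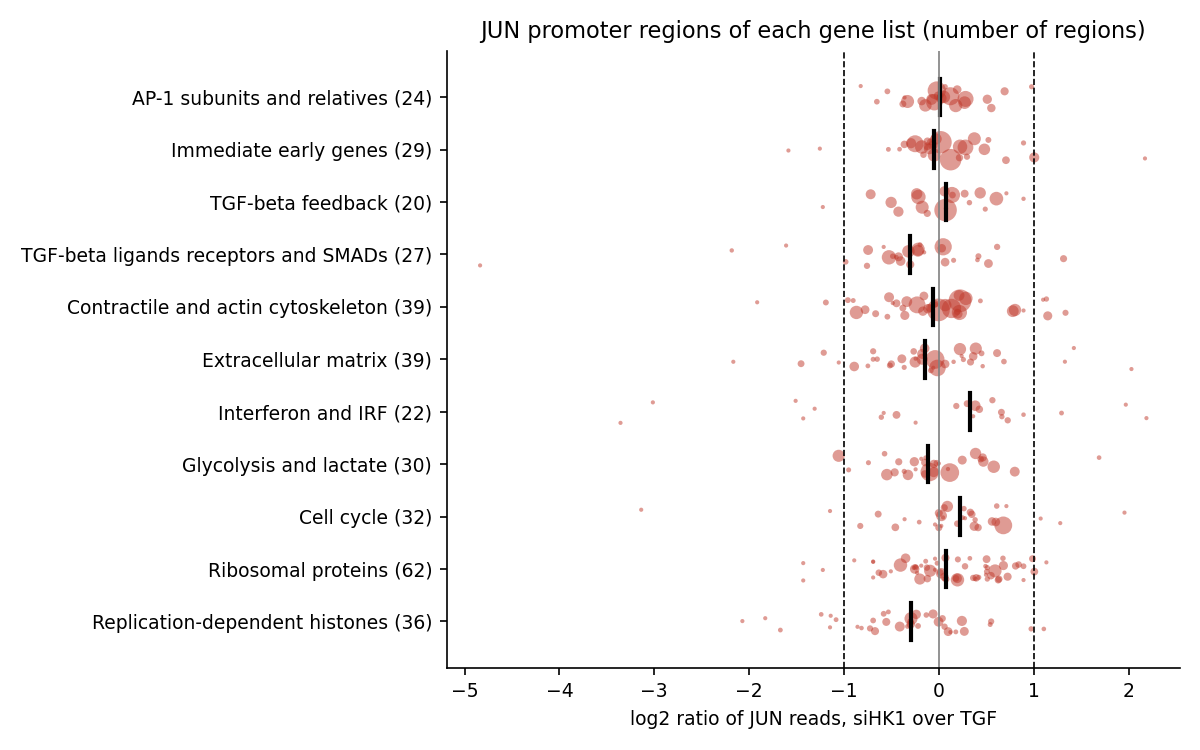
log2 ratio of JUN reads, siHK1 to TGF (x axis), of each promoter region of 11 gene lists (rows, with the number of regions); point area grows with mean scaled reads, the black bar is the list's median and dashed lines mark 2-fold. No region of the AP-1 list passes 2-fold after scaling, and most points beyond the dashed lines are small ones with few reads.

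Markers of the labelled cell type were covered unevenly. Of 10 fibroblast markers 6 had a promoter region (11 regions, 518 TGF and 270 siHK1 reads in sum), among them Pdgfra, Pdgfrb, Tcf21 and Ddr2, whereas Dcn, Lum, Thy1 and Col1a1 had none. Of 8 cardiomyocyte markers 2 had one, Myh6 (84 and 38 reads) and Tnni3 (17 and 11), of 6 endothelial markers 4 (158 and 90 reads in sum), of 6 macrophage and leukocyte markers 3 (226 and 145) and of 5 smooth muscle and pericyte markers 1 (8 and 2). Ptprc, Adgre1, Itgam, Kdr and Erg had no promoter region. JUN binding at a promoter is not expression, and whether other cell types were present was not tested.

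SMAD3, a signal transducer of TGF-β, and NFATC2, a calcium-responsive factor, were profiled in the same series and met JUN more often at promoters than elsewhere. Sharing at least 1 base, 3937 JUN promoter regions (29.5%, 28.8 to 30.3) overlapped a listed SMAD3 region, against 15.4% of intron and 15.0% of distal JUN regions. For NFATC2 it was 3301 (24.8%, 24.0 to 25.5) against 12.8% and 13.1%. H3K9lc, lactylation of histone H3 at lysine 9, showed no such preference, with 813 (6.10%, 5.70 to 6.52) against 4.83% and 7.88%. The share with SMAD3 rose from 9.94% in the lowest to 56.3% in the highest of 5 equal bins of JUN reads, that with NFATC2 from 7.64% to 50.7%, and that with H3K9lc from 2.83% to 12.7%. In all, 7617 JUN promoter regions (57.1%) met none of the other antibodies, 1781 (13.4%) met both SMAD3 and NFATC2, and 323 (2.42%) met all 3. Over all listed JUN regions these shares were 71.6%, 7.50% and 2.32%. The SMAD3-overlapping regions held an AP-1 element in 6.22% and the others in 11.5%, and the median width was 719 and 451 bases.

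SMAD3 reads at these promoters were higher in siHK1. In the SMAD3 regions at JUN promoters the median read number was 5 in TGF and 8 in siHK1, although the SMAD3 table as a whole held 563562 TGF and 399897 siHK1 reads. Scaled to equal totals, the median log2 ratio was 1.14, against 0.01 for the whole table, and 0.65 without scaling. At least 2-fold higher in siHK1 were 55.9% of the JUN promoter regions with SMAD3, against a background of 32.8% over the table, and 4.62% were lower, against 31.7%. The JUN ratio of the same regions had a median of 0.03. Seen from the SMAD3 table, its 4038 regions on a JUN promoter region had a median of 1.13, its 2779 promoter regions off every JUN region 0.49, its 9394 regions on other JUN regions 0.84 and the remaining 42396 -0.35. The value of 0.49 is that of equal reads, since the median region there held 3 reads in each library and scaling alone then gives it. A region is listed once a peak is called in either library. The SMAD3 peak was called in siHK1 alone at 68.6% of the 4038, 57% of the 2779, 59.2% of the 9394 and 42.5% of the rest, so regions listed only through siHK1 were selected to be high there, and the order of these groups is no separate evidence of a change.

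NFATC2 and H3K9lc did not share this pattern. NFATC2 regions at JUN promoters had a median of 7 TGF and 4 siHK1 reads and a median log2 ratio of 0.05, against 0.41 for their table, with 18.7% at least 2-fold lower (background 25.6%) and 22.3% higher (background 38.4%). The median was 0.05 as well at NFATC2 regions on other JUN regions, and 0.70 at those off every JUN region, where the median region held 2 reads in each library and scaling alone gives this value. H3K9lc regions at JUN promoters had 13 and 6 reads and a median log2 ratio of -0.33, against -0.08 for their table, with 26.3% lower (background 13.7%) and 8.98% higher (background 13%). Elsewhere the H3K9lc median was -0.04 at promoters off every JUN region (1739 regions) and -0.07 at other JUN regions (3601 regions), and the peak was called in TGF alone at 65.6% of the regions on JUN promoters, 54.8% and 42.8%. Regions listed only through TGF were selected to be high in TGF, so the lower ratio is not separate from how the regions were listed. Without scaling the medians at JUN promoters were -0.65 for NFATC2, with 38.8% lower and 10.8% higher, and -1.14 for H3K9lc, with 57.6% lower. Region by region, the log2 ratios of JUN and of the other antibody had a Pearson r of -0.0848 for SMAD3 (3937 regions), -0.0951 for NFATC2 (3301) and -0.0489 for H3K9lc (813). These correlations are across regions of the same library pairs, which are not independent replicates.

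**Figure D5:**
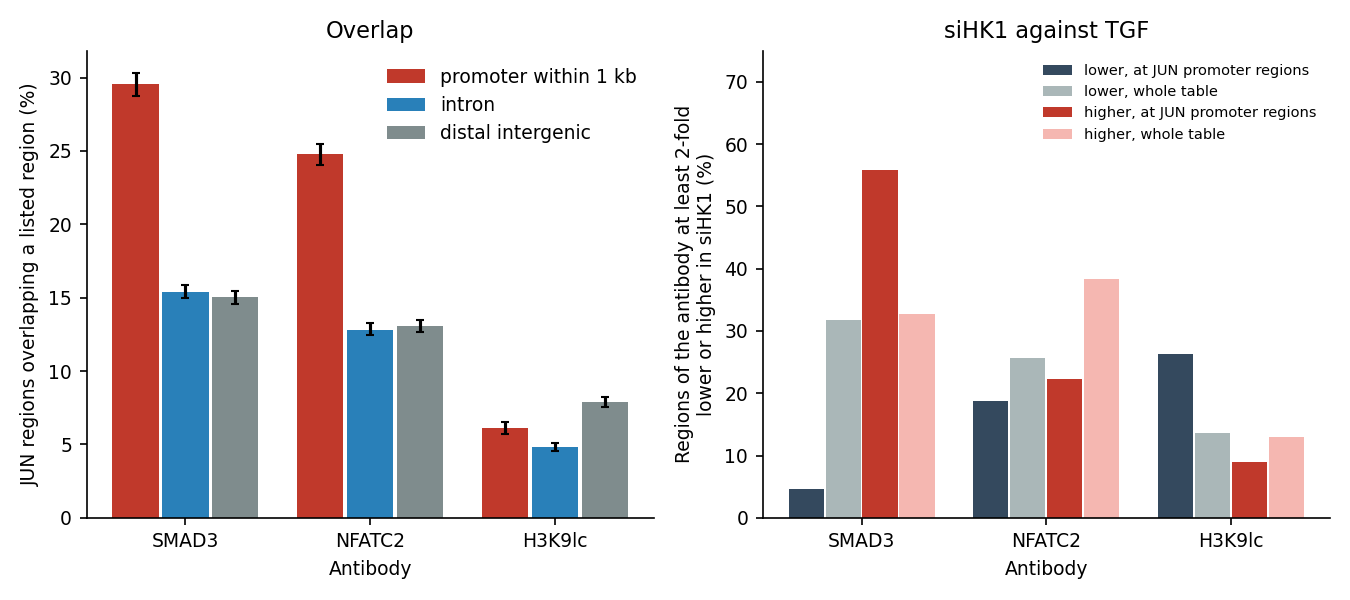
Left, share of JUN regions (y axis, %) that overlap a listed region of each antibody (x axis) for promoter, intron and distal intergenic JUN regions, with exact 95% intervals of counting error. Right, share of regions (y axis, %) at least 2-fold lower or higher in siHK1 for each antibody, at JUN promoter regions and over its whole table; SMAD3 is higher at 55.9% of JUN promoter regions against 32.8% of its table, and H3K9lc lower at 26.3% against 13.7%. Most of these SMAD3 and H3K9lc regions were listed through a peak in 1 library, the one where they are high.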

How the data were processed

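CUT&Tag reads of JUN, H3K9lc, SMAD3 and NFATC2 libraries were deposited by the authors as raw read counts per listed region, with a peak mark of 0 or 1 for each library. The study's methods name Bowtie2 and GRCm39, whereas the submitters' processing notes name BWA 0.7.12 and mm10. All 30096 transcripts of the JUN table matched GENCODE vM21, so coordinates were read as GRCm38. Peaks were called with MACS2 per the methods, which also name spike-in DNA that no scaling here used. Columns of the authors' fold changes and p-values were not used, nor were 8 columns of per-library values whose names give no library.

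Counts were scaled to equal totals over the listed regions of each table, 0.5 was added to the raw count, and a region was called at a log2 ratio of at least 1 in size. No p-value was computed, because each condition had 1 library. Ratio intervals are exact 95% binomial intervals of counting error. Read density is the mean of the scaled reads of both libraries per kb. Motifs were searched on both strands of the central 200 bases. The same motifs were searched in RefSeq promoters of GRCm38.p6. The calling code was tested on simulated data.

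The members and gene lists were chosen with earlier results of these data known. Named by rule were the 5 regions of highest density, the 8 largest falls and 8 largest rises above the median level, up to 4 regions of highest reads per list, Jun, and the motif windows. A few genes that this rule names are not reported here. Every other gene named, such as the 2-fold members of short counts, was chosen after its values were seen. Histone genes were matched by the newer symbols of the table. Python 3.11.15, pandas 2.3.3, numpy 2.4.6 and SciPy 1.17.1 were used.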

Additional observations from a re-analysis of the deposited data

How the results depend on the processing

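With 1 library per condition, leaving out a library leaves no comparison. No paired analysis was possible because no replicate exists. The median log2 ratio at JUN promoter regions lay near 0 and changed sign with the setting. It was -0.0697 with totals matched over regions with a peak in both libraries, 0.0076 with a pseudocount of 1, -0.0235 with 0.1, and -0.10 with the spread matched by a linear scaling chosen after seeing the data. Among regions of at least 10 mean scaled reads it was 0.0254, with 482 lower and 387 higher (4.40% lower, against 6.48% of all listed regions), and among those with a peak in both libraries 0.10, with 42 and 99 (0.605% against 1.18%). Without scaling, an alternative also added after seeing the data, it was -0.90, with 5699 and 170 (42.7% against 45.9%). At a fold limit of 1.5 there were 2461 lower and 1904 higher (18.5% against 21.9% lower). The AP-1 share was 22.7% over whole regions, 5.0% in the central 100 bases and 12.6% at regions with a peak in both libraries. Overlap, with the midpoint inside and at regions with a peak in both libraries, was 4.12% and 8.84% for H3K9lc, 19.5% and 40.2% for SMAD3, and 15.2% and 34.4% for NFATC2, and sharing at least 50% of the shorter region gave 26.8% for SMAD3 and 22.5% for NFATC2. The share with a peak in both libraries was 62.8% at 10 reads or more. The settings change the regions, the window or the overlap asked for, and otherwise the cause was not tested. The 16 named falls and rises kept their direction in all 96 alternative values, and 6 rises fell below 2-fold without scaling. The difference of the deposited normalized values was not run, since those column names give no library.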
